A study of Mus musculus with 3 samples.

Results

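The 10 genes described here are genes by which primordial germ cells, the embryonic precursors of eggs and sperm, are known and on which they depend. They form a list of names, set with earlier results of these data known, and were looked up by symbol in the gene tables of endoderm, mesoderm and epiblast. They are 10 of the 17633 genes with at least 1 read in any library. All 10 had reads in epiblast, and 9 of the 10 had reads in each of endoderm and mesoderm.

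In the mouse, primordial germ cells are set aside at the posterior end of the epiblast under BMP signals, and at this stage they lie as a small cluster near the base of the allantois. The genes fall into groups by role. *Prdm1* and *Prdm14* encode transcriptional regulators that start the germ cell program, *Dppa3*, *Ifitm1*, *Ifitm3* and *Alpl* are used as its markers, and *Nanos3*, *Dnd1*, *Kit* and *Kitl* are needed for the survival or migration of the cells. Several of these genes are also used by somatic cells of the gastrula, so that a read from a layer is not by itself a read from a germ cell.

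The embryos were untreated ICR mice at E7.5, and each germ layer was sequenced as 1 library of RNA pooled over many embryos. The study cut off the embryonic region of each embryo, loosened it in trypsin and pancreatin and separated the layers by hand, and its epiblast holds the neuroectoderm together with the primitive streak. The tissue that was not kept includes the extra-embryonic part of the conceptus. Primordial germ cells were not isolated, and in bulk tissue fewer cells of a type and less RNA per cell cannot be told apart.

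With 1 library per germ layer, none of the differences below has a replicate check. Uniquely mapped reads counted on genes came to 41.7 M (endoderm), 40.8 M (mesoderm) and 42.7 M (epiblast). Levels are given in RPKM, the reads of a gene per kilobase of its length, scaled to the library's total, with 95% Poisson intervals that cover counting error only. Of 6 markers for each layer, all 6 of endoderm (such as *Sox17* and *Afp*) and all 6 of mesoderm (such as *Kdr* and *Mesp1*) had their highest RPKM in their own layer, and so did 5 of 6 of epiblast. The exception was *Fgf5*, at 6.64 in endoderm and 6.32 in epiblast. As a median share of the endoderm level, endoderm markers reached 1.30% in mesoderm and 0.264% in epiblast. Mesoderm markers reached 1.89% of their own level in endoderm and 19.0% in epiblast, and epiblast markers 8.09% in endoderm and 7.28% in mesoderm.

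The 10 genes did not share a layer. *Prdm1*, *Kit* and *Kitl* had their highest RPKM in endoderm, *Ifitm1* had it in mesoderm, and *Prdm14*, *Dppa3*, *Ifitm3*, *Nanos3*, *Dnd1* and *Alpl* had it in epiblast. Their levels ran from 0.0880, for *Dppa3* in endoderm, to 416.3, for *Ifitm1* in mesoderm, among the values above 0. RPKM exceeded 5 in at least 1 library for 7 genes. *Prdm14*, *Dppa3* and *Nanos3*, which are among the most restricted to germ cells of the 10 at this stage, did not reach an RPKM of 1 in any library.

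**Figure D1:**
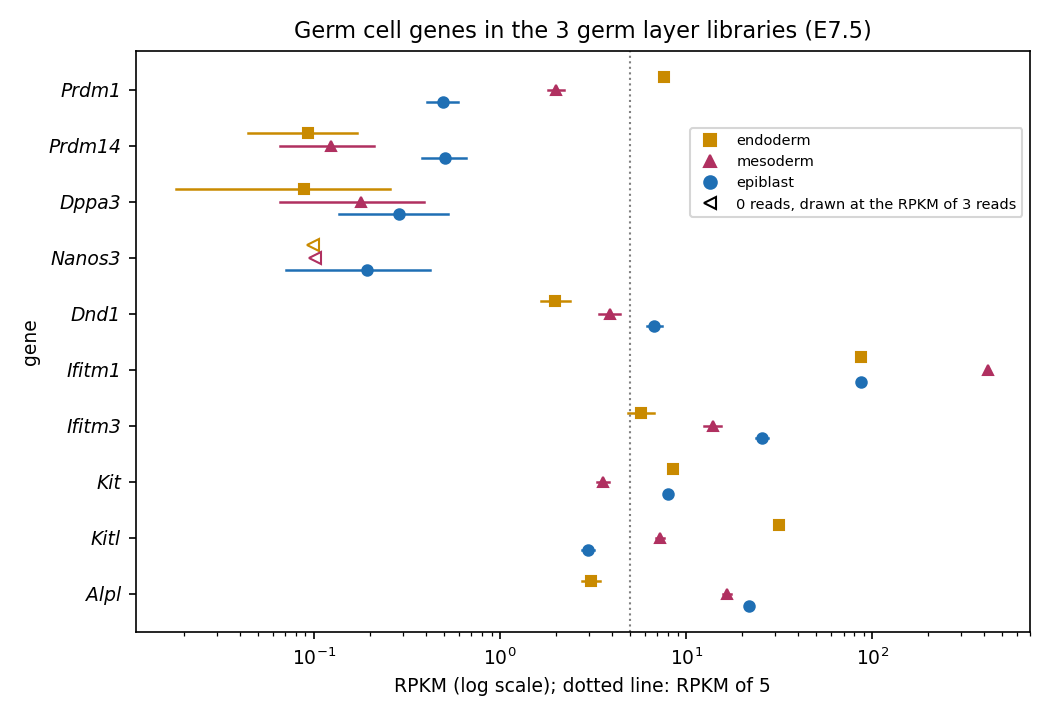
RPKM on a log scale (horizontal axis) of the 10 germ cell genes (vertical axis) in the endoderm, mesoderm and epiblast libraries, with lines for 95% Poisson counting intervals and open triangles for 0 reads, drawn at the RPKM of 3 reads. *Prdm14*, *Dppa3* and *Nanos3* lie below an RPKM of 1 throughout, and *Ifitm1* lies highest, at 416.3 in mesoderm.

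Each pair of libraries was compared with the criteria of the paper, which are RPKM above 5 in at least 1 of the 2, a fold above 2 and an FDR (false discovery rate) below 0.001 by Audic and Claverie's exact test, run on read counts. That test compares 2 libraries and not the layers as conditions. A gene that met all the criteria is named as called, and a gene with RPKM above 5 in either library could be called. Between endoderm and mesoderm, 6 of the 10 genes could be called, and all 6 were. *Prdm1*, *Kit* and *Kitl* were higher in endoderm, as were 14.4% of the 8867 genes that could be called, and *Ifitm1*, *Ifitm3* and *Alpl* were higher in mesoderm, as were 8.56%. Between endoderm and epiblast 7 could be called, of which *Prdm1* and *Kitl* were higher in endoderm (15.7% of 8843 genes) and *Ifitm3*, *Dnd1* and *Alpl* higher in epiblast (8.94%). Between mesoderm and epiblast 6 could be called, of which *Ifitm1* and *Kitl* were higher in mesoderm (5.30% of 8340 genes) and *Kit* higher in epiblast (5.02%). *Kitl* was the only one of the 10 called in all 3 pairs. When replicate spread was assumed instead, as a biological coefficient of variation of 0.4 in edgeR's exact test, *Prdm1* between endoderm and epiblast was the only call left.

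All 7 genes with RPKM above 5 in any library were called in at least 1 pair, against 31.5% of the 9135 such genes. The median absolute log2 ratio of those that could be called was, in the same order of pairs, 2.03, 2.16 and 1.02. Over all genes that could be called it was 0.46, 0.51 and 0.22. The signed medians of the same genes lay near 0 in the comparisons with endoderm (-0.01 and 0.00), since some genes were higher and others lower there, and came to -0.59 for mesoderm minus epiblast. Over all genes they were -0.10, -0.08 and 0.02.

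**Figure D2:**
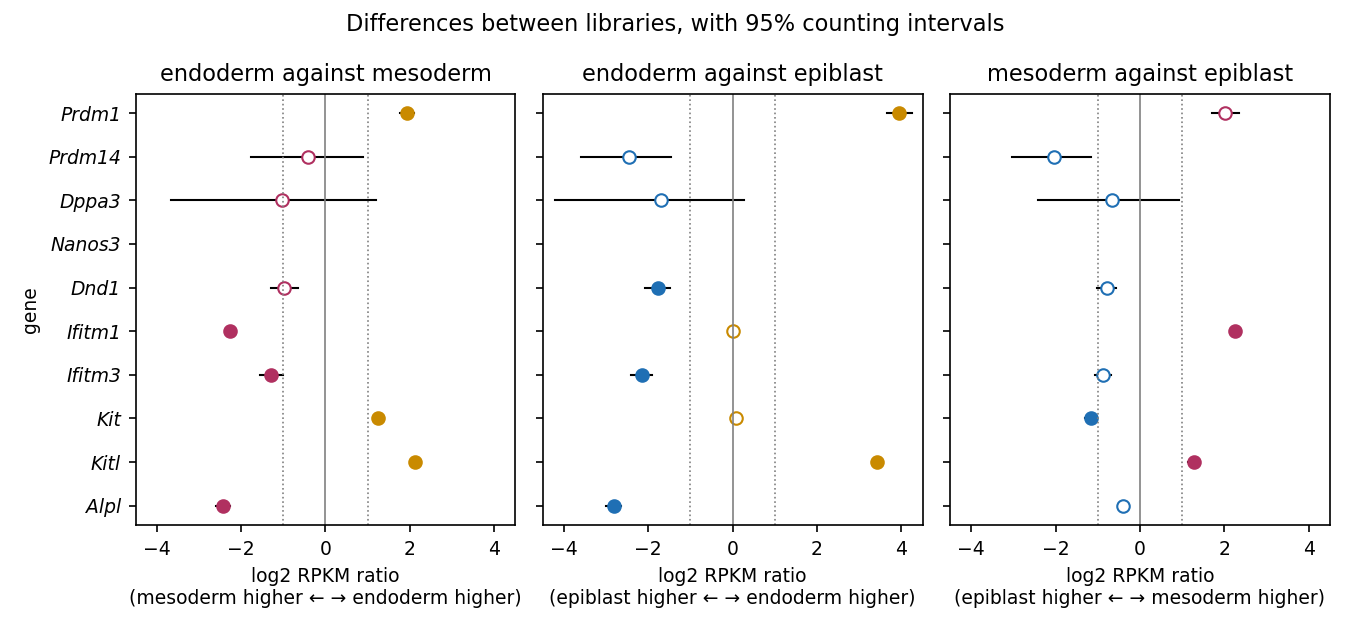
Log2 ratio of RPKM (horizontal axis, 0 for no difference, dotted lines at a fold of 2) of each gene (vertical axis) in the 3 pairs of libraries, with 95% exact counting intervals; filled points were called, open points were not, the colour gives the library with the higher RPKM, and *Nanos3*, with 0 reads in endoderm and mesoderm, has no point. *Prdm1* lies farthest from 0, at 3.95 between endoderm and epiblast.

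*Prdm1* encodes BLIMP1, a zinc finger repressor that holds down the somatic program in germ cell precursors and that is also used in the endoderm of the gastrula. The gene is on chromosome 10 (GRCm38, 44437177 to 44528501, minus strand). It had 1631 endoderm, 420 mesoderm and 108 epiblast reads, or RPKM of 7.61, 2.0 and 0.492. Endoderm was the highest library and epiblast the lowest, with counting intervals that did not overlap. The RPKM of endoderm was 3.81-fold that of mesoderm (95% interval 3.42 to 4.25) and 15.5-fold that of epiblast (12.7 to 19.0), and both pairs were called. Mesoderm was 4.07-fold above epiblast (3.28 to 5.07), a pair in which neither library reached an RPKM of 5. The share of the gene covered by reads went from 96.7% in endoderm to 72.1% in epiblast.

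The mesoderm level of *Prdm1* was 26.3% of its endoderm level and the epiblast level was 6.46%. Among the 6 endoderm markers, *Cer1* was in mesoderm at 34.4% of its endoderm RPKM and the other 5 were at 3.17% or less. In epiblast *Foxa2* was at 5.86% and the other 5 at 0.815% or less. *Prdm1* thus stood above 5 of the 6 markers in mesoderm and above all 6 in epiblast. The part of endoderm RNA in the mesoderm and epiblast levels was not tested.

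*Kitl* encodes the ligand of the KIT receptor, a growth factor that cells along the path of the germ cells provide. It lies on chromosome 10 (100015630 to 100100416, plus strand) and had 7183 endoderm, 1604 mesoderm and 691 epiblast reads. The RPKM was 31.6 (endoderm), 7.20 (mesoderm) and 2.97 (epiblast), and the 3 counting intervals lay apart. Endoderm was 4.39-fold above mesoderm (4.16 to 4.64) and 10.7-fold above epiblast (9.86 to 11.5), and mesoderm was 2.43-fold above epiblast (2.22 to 2.66). The order of the layers was that of *Prdm1*, and the shares of the endoderm level in mesoderm (22.8%) and epiblast (9.38%) were close to those of *Prdm1*. By the distance between log2(RPKM+0.1) values centred over the 3 libraries, *Prdm1* and *Kitl* were 0.41 apart, the closest pair among the 7 genes with RPKM above 5 but for *Ifitm3* and *Dnd1* (0.31).

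The starts of *Prdm1* and *Kitl* are shown because these genes had the same order of layers. Both are 300 bases from RefSeq on GRCm38.p6, written 5′ to 3′ on the strand of the gene, with 250 bases before the start and 50 from it onward. Capitals mark the TATA box (TATAAA), the CCAAT box and the GC box (GGGCGG), each on either strand. The *Prdm1* sequence is chr10:44458699-44458998 on the minus strand and the *Kitl* sequence is chr10:100015571-100015870 on the plus strand.
Prdm1: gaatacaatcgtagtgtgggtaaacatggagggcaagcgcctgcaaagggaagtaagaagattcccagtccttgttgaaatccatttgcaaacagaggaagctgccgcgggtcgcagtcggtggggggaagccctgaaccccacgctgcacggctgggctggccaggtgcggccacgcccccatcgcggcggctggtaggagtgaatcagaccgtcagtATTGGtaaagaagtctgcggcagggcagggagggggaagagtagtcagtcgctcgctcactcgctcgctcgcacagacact
Kitl: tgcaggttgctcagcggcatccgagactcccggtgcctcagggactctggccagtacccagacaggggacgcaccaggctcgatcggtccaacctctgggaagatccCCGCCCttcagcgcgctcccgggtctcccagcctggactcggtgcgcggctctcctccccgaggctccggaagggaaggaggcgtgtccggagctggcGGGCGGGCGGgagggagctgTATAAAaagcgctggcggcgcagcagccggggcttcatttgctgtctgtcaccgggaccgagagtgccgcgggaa
The *Kitl* sequence held TATAAA 25 bases before the start, which 13.6% of 32851 promoter sequences of this length hold, and GGGCGG at 3 places, which 35.7% hold at 1 or more. At 2 of these places the matches overlap. The *Prdm1* sequence held neither of them and had CCAAT in the opposite direction, 31 bases before the start (37.4% of promoters). None of the 6 motifs searched was present in both. Each window shows a single start, while *Prdm1* has 3 annotated coding transcripts and *Kitl* has 4. The *Prdm1* window lies inside the span of the gene given above. Which starts were used in these libraries was not tested.

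*Kit* encodes the receptor tyrosine kinase on germ cells, blood progenitors and pigment cell precursors. It lies on chromosome 5 (75574916 to 75656722, plus strand) and had 1848 endoderm, 758 mesoderm and 1780 epiblast reads. The RPKM was 8.52, 3.56 and 8.01. Mesoderm was the low library. Endoderm was 2.39-fold above mesoderm (2.20 to 2.61) and epiblast 2.25-fold (2.06 to 2.45), and both pairs were called. Endoderm and epiblast differed by 1.06-fold (0.997 to 1.14), with an FDR of 0.0785 by Audic and Claverie's exact test, so that these neighbours in the order did not differ beyond counting error. With 1 RPKM added before the ratio, *Kit* was no longer called between mesoderm and epiblast, at a log2 ratio of -0.98. Scaling by TMM or by the median of ratios moved endoderm up by 0.11 on the log2 scale, which is more than the log2 ratios of endoderm to epiblast of *Kit* (0.09) and of *Ifitm1* (0.00).

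The receptor and its ligand were thus ordered differently. *Kitl* was 3.71-fold above *Kit* in endoderm and 2.02-fold above it in mesoderm, in RPKM, whereas in epiblast *Kit* was 2.70-fold above *Kitl*. Of 13 genes that carry the KIT signal or serve cell migration and adhesion, 11 had RPKM above 5 in at least 1 library and 4 of these were called in any pair, against 31.5% of all such genes, and none of these 4 is a KIT signal transducer. In endoderm against mesoderm 2 were higher in endoderm and 1 in mesoderm, in endoderm against epiblast 1 was higher in each, and in mesoderm against epiblast 1 was higher in mesoderm and 3 in epiblast. The adaptor *Grb2* had RPKM of 30.5, 34.8 and 32.1 in endoderm, mesoderm and epiblast. *Cxcr4*, the receptor that guides migrating germ cells, was called in all 3 pairs, with 8.64 (endoderm), 26.9 (mesoderm) and 1.89 (epiblast). Its ligand *Cxcl12* had 0.233, 1.42 and 36.4. *Itgb1*, an integrin gene, was not called, at 71.4, 62.4 and 37.7. The epithelial genes *Cdh1* (181.2, 5.44 and 155.6) and *Epcam* (111.6, 7.22 and 94.7) had, like *Kit*, their lowest RPKM in mesoderm. Over the members of this list that could be called, the median log2 ratio was -0.04 for endoderm minus mesoderm, 0.22 for endoderm minus epiblast and 0.12 for mesoderm minus epiblast. Over all genes that could be called the medians are those given above, -0.10, -0.08 and 0.02, which stand beside each list that follows.

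**Figure D3:**
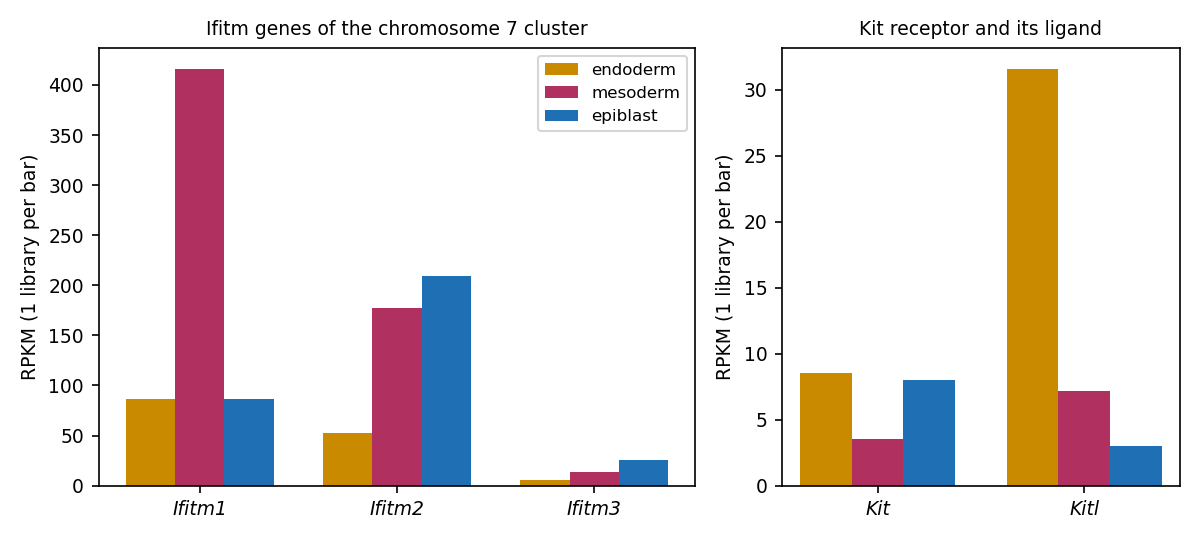
RPKM (vertical axes, linear, 1 library per bar and no error bars) of *Ifitm1*, *Ifitm2* and *Ifitm3* on the left and of *Kit* and *Kitl* on the right, in endoderm, mesoderm and epiblast. *Ifitm1* is highest in mesoderm (416.3) and *Ifitm3* in epiblast (25.5), while *Kitl* is highest in endoderm (31.6) and *Kit* lowest in mesoderm (3.56).

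*Ifitm1* and *Ifitm3* encode small interferon-inducible membrane proteins. *Ifitm3*, first known as fragilis, marks the cells from which germ cells are drawn. Both lie in a cluster on chromosome 7, *Ifitm1* from 140967221 to 140969825 on the plus strand and *Ifitm3* from 141009586 to 141010770 on the minus strand, with 39.8 kb between them. *Ifitm2* lies on the other side of *Ifitm1*, from 140954837 to 140955987.

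*Ifitm1* had 2542 endoderm, 11937 mesoderm and 2603 epiblast reads. Its RPKM of 416.3 in mesoderm (408.8 to 423.8) was above that of 99.1% of the 16201 genes listed there. Mesoderm was 4.79-fold above endoderm (4.59 to 5.0) and 4.79-fold above epiblast (4.59 to 5.0). Endoderm (86.9) and epiblast (86.8) did not differ beyond counting error, with a fold of 1.0 and an interval of 0.948 to 1.06. Both were at 20.9% of the mesoderm level, where all 6 mesoderm markers were at 9.75% or less in endoderm, while in epiblast *Tbx6* was at 88.2%, *Snai1* at 36.9% and *Kdr* at 1.89%. The part of mesoderm RNA in the epiblast level was not tested.

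*Ifitm3* had 154, 367 and 705 reads, or RPKM of 5.71 (endoderm), 13.9 (mesoderm) and 25.5 (epiblast). The order was endoderm, mesoderm, epiblast from low to high, and the intervals did not overlap. Epiblast was 4.47-fold above endoderm (3.75 to 5.35) and mesoderm 2.43-fold above endoderm (2.01 to 2.95), and both pairs were called. Epiblast was 1.84-fold above mesoderm (1.62 to 2.09), which did not meet the fold of 2.

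Within a library, *Ifitm1* stood above *Ifitm3* by 15.2-fold in endoderm, 30-fold in mesoderm and 3.41-fold in epiblast. *Ifitm2*, which is not among the 10 genes, had the order of *Ifitm3*, with RPKM of 52.8, 177.1 and 208.9, and was called in both comparisons with endoderm. Its ratio to *Ifitm3* was 9.26 (endoderm), 12.8 (mesoderm) and 8.20 (epiblast). Of the other 4 genes of the family, *Ifitm5* (3, 18 and 23 reads), *Ifitm7* (0, 6 and 20) and *Ifitm10* (3, 37 and 0) stayed below an RPKM of 1, and *Ifitm6* had no read. Uniquely mapped reads leave out stretches that genes share: 10% of the 50-base words of *Ifitm3* transcripts and 5.02% of those of *Ifitm1* also occur in transcripts of other genes, 15 of these words in both *Ifitm1* and *Ifitm3*. Levels of these genes against each other are therefore uncertain. *Ifitm2* shares 268 exon bases with *Gm45717* on the same strand, so its reads are uncertain as well.

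The starts of *Ifitm1* and *Ifitm3* are shown because these neighbours in the same family were highest in different layers. They are 300 bases each from RefSeq on GRCm38.p6, chr7:140967826-140968125 on the plus strand and chr7:141010695-141010994 on the minus strand, written 5′ to 3′ on the strand of the gene with the start at the same place as above. Capitals mark the GC box and the interferon response core (GAAANNGAA) on either strand.
Ifitm1: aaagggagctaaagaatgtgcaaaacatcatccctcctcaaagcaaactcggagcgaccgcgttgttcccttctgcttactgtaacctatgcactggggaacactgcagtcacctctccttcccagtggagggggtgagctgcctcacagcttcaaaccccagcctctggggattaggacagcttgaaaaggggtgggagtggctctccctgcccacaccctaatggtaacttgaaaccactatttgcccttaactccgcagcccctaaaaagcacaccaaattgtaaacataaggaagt
Ifitm3: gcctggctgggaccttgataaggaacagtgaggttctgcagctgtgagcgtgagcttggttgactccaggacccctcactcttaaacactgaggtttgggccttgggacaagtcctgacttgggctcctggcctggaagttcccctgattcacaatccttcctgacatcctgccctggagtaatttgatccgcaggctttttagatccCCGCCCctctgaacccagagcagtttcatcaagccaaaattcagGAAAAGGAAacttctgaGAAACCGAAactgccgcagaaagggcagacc
The *Ifitm3* sequence held GAAANNGAA at 2 places, 2 and 19 bases after the start, in the direction of the gene, and 8.56% of promoters hold it at 1 or more. It also held GGGCGG in the opposite direction, 42 bases before the start. The *Ifitm1* sequence held none of the 6 motifs. The T-box motif AGGTGTGA (1.28% of promoters) and the octamer ATGCAAAT (1.74%) were in neither, nor in the sequences of *Prdm1*, *Kitl*, *Kit*, *Alpl* and *Nanos3*. These matches describe the letters of these windows only. *Ifitm1* has 3 annotated coding transcripts and *Ifitm3* has 1, and the *Ifitm1* window lies inside the span of its gene. Which start of *Ifitm1* was used in these libraries was not tested.

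*Alpl* encodes the tissue-nonspecific alkaline phosphatase, whose enzyme activity is the classic stain for primordial germ cells. Its place is chromosome 4 (137741733 to 137796384, minus strand). It had 324 endoderm, 1705 mesoderm and 2343 epiblast reads, or RPKM of 3.09, 16.6 and 21.8. Endoderm was the low library. Mesoderm was 5.37-fold (4.76 to 6.06) and epiblast 7.05-fold (6.28 to 7.95) above it, and both pairs were called. Epiblast was 1.31-fold above mesoderm (1.23 to 1.40), a difference beyond counting error with an FDR of 2.79e-17 by Audic and Claverie's exact test but below the fold of 2. *Alpi*, *Akp3* and *Alppl2*, the other alkaline phosphatase genes looked up, had no read in any library, which allows up to 3 reads each.

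*Dnd1* encodes an RNA-binding protein that protects germ cell transcripts from microRNAs. The gene is at chromosome 18 (36763671 to 36766214, minus strand), and 140 bases of its exons overlap exons of *Wdr55* on the opposite strand. Whether counting used the strand is not stated, so these reads are uncertain. *Dnd1* had 123 endoderm, 237 mesoderm and 429 epiblast reads, or RPKM of 1.98, 3.89 and 6.74. The order was that of *Ifitm3*. Epiblast was 3.40-fold above endoderm (2.78 to 4.19), which was called. In endoderm and mesoderm *Dnd1* was at 29.4% and 57.8% of its epiblast level and *Ifitm3* at 22.4% and 54.4%, where the epiblast markers other than *Fgf5* were at 17.2% or less in endoderm and at 23.1% or less in mesoderm. Mesoderm was 1.96-fold above endoderm (1.57 to 2.46) and epiblast 1.73-fold above mesoderm (1.47 to 2.04), and neither pair was called.

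*Nanos3* encodes an RNA-binding protein that keeps migrating germ cells from dying. *Nanos3* is on chromosome 8 (84173731 to 84185217, minus strand). It had 6 reads in epiblast, an RPKM of 0.192 (0.0706 to 0.419), and 0 in endoderm and mesoderm. A count of 0 allows up to 3 reads, or an RPKM of 0.0987 in endoderm and 0.101 in mesoderm. The epiblast RPKM was 1.95-fold the endoderm limit and 1.91-fold the mesoderm limit. Its counting interval starts at 0.0706, below both limits, so these ratios are not minimum folds. Against endoderm and mesoderm the FDRs were 0.0236 and 0.0304 by Audic and Claverie's exact test. The difference was not detectable at the FDR of the criteria at this depth.

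*Dppa3*, also known as Stella, encodes a protein that marks established germ cells and guards methylated DNA in the early embryo. It lies on chromosome 6 (122626410 to 122630272, plus strand). It had 3 endoderm, 6 mesoderm and 10 epiblast reads, or RPKM of 0.0880 (0.0182 to 0.257), 0.180 (0.0659 to 0.391) and 0.286 (0.137 to 0.526). The 3 intervals overlapped. The ratio of epiblast to endoderm was 3.25 with an interval of 0.837 to 18.4, and its FDR was 0.0829 by Audic and Claverie's exact test. Of the 50-base words of its transcripts, 16.5% also occur in transcripts of other genes, mostly in the pseudogene *Dppa3-ps*.

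*Prdm14* encodes a zinc finger regulator that restores pluripotency genes and represses DNA methylation genes in germ cell precursors. It lies on chromosome 1 (13113457 to 13127163, minus strand). It had 10 endoderm, 13 mesoderm and 56 epiblast reads, or RPKM of 0.0926, 0.123 and 0.506. Epiblast was above both other libraries, and its interval (0.382 to 0.657) did not overlap theirs (0.0444 to 0.170 and 0.0653 to 0.210). Epiblast was 5.46-fold above endoderm (2.76 to 12.0), with an FDR of 1.46e-08, and 4.12-fold above mesoderm (2.23 to 8.21), with an FDR of 7.65e-07, both by Audic and Claverie's exact test. The reads covered 94.1% of the gene in epiblast, 37.6% in mesoderm and 27.7% in endoderm. Because no library reached an RPKM of 5, *Prdm14* could not be called in the comparisons above, and without that minimum it was called in both.

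*Prdm14* and *Prdm1* thus went opposite ways between endoderm and epiblast, at log2 ratios of -2.45 and 3.95. Together *Prdm14*, *Dppa3* and *Nanos3* had 13 endoderm, 19 mesoderm and 72 epiblast reads, which is 0.312, 0.465 and 1.69 reads per M reads counted. Of 13 other genes of the Prdm family, all had reads in at least 1 library, 4 had RPKM above 5 and 2 of these were called, against 31.5% of all such genes. *Prdm6* had RPKM of 23.2 (endoderm), 24.4 (mesoderm) and 0.630 (epiblast) and was called in both pairs with epiblast. *Prdm2* and *Prdm4* were not called in any pair. Of 5 further Nanos and Dppa genes, only *Dppa5a* exceeded an RPKM of 1, with 1.22, 0.908 and 1.41.

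The signals that induce germ cells come from neighbouring tissue, chiefly BMP4 acting with WNT3. Of 14 genes for these signals and their transducers, 12 had RPKM above 5 in at least 1 library and 6 of these were called in any pair, against the 31.5% of all such genes. In mesoderm 1 was called above endoderm, 2 were called in each direction between endoderm and epiblast, and 2 were higher in mesoderm and 3 in epiblast in the remaining pair. *Bmp4* had RPKM of 1.11 (endoderm), 33.6 (mesoderm) and 2.69 (epiblast), and *Bmp2* had 24.8, 13.0 and 0.489. *Wnt3a*, expressed in the streak, had 0.774, 1.38 and 13.9. *T*, a streak factor that activates *Prdm1* and *Prdm14* in germ cell precursors, had 93.7, 74.8 and 228.5 and was called as higher in epiblast against both other layers. *Eomes* (9.51, 7.01 and 14.5) was called between mesoderm and epiblast, and the receptor gene *Bmpr2* (6.28, 4.85 and 2.30) between endoderm and epiblast. The list had median log2 ratios of 0.26 for endoderm minus mesoderm, -0.35 for endoderm minus epiblast and 0.10 for mesoderm minus epiblast.

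Germ cells keep or regain pluripotency genes. Of 14 such genes and partners of PRDM1 and PRDM14, 9 had RPKM above 5 in at least 1 library, and 5 of these were called (31.5% of all such genes), all of them higher in epiblast than in both other layers, as were 8.94% of all genes that could be called against endoderm and 5.02% against mesoderm. Between endoderm and mesoderm *Utf1* was higher in endoderm and *Pou5f1* in mesoderm. *Tfap2c*, which with *Prdm1* and *Prdm14* makes the core of the germ cell program, had 17 endoderm, 94 mesoderm and 688 epiblast reads, or RPKM of 0.143, 0.807 and 5.65. *Pou5f1* had RPKM of 36.4, 119.6 and 517.2, and *Nanog* had 3.42, 1.61 and 25.8. *Sox2* (0.616, 1.33 and 42.7) and *Utf1* (7.95, 0.570 and 86.9) were the others. *Pou5f1*, *Sox2* and *Utf1* also stand among the epiblast markers, which were chosen to mark that layer. For these genes the comparison with all genes is not independent of that choice. *Lin28a*, which blocks the maturation of let-7 and so permits *Prdm1*, had 363.8, 255.3 and 307.3 and was not called. The median log2 ratio of the list was -2.92 for endoderm minus epiblast and -2.11 for mesoderm minus epiblast, and 0.08 for endoderm minus mesoderm.

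Genes that germ cell precursors hold down, both somatic regulators and methylation genes such as *Dnmt3b*, were well represented in mesoderm and epiblast. All 9 on the list had RPKM above 5 in at least 1 library, and 7 were called in any pair, against 31.5% of all such genes. Of these, 5 were higher in mesoderm than in endoderm (8.56% of all genes that could be called), 7 were higher in epiblast than in endoderm (8.94%), and between mesoderm and epiblast 2 were higher in mesoderm and 1 in epiblast. None had its highest RPKM in endoderm, the layer highest for *Prdm1*, and a link of these levels with *Prdm1* was not tested. *Hoxb1*, a homeobox gene of the posterior embryo, had RPKM of 2.67 (endoderm), 68.5 (mesoderm) and 38.6 (epiblast). *Snai1* and *Mesp1*, which also stand among the mesoderm markers, followed. *Snai1* had 5.27, 67.3 and 24.9, and *Mesp1* had 1.36, 50.5 and 11.6. *Dnmt3b*, a DNA methyltransferase gene that also stands among the epiblast markers, had 111.6, 74.3 and 648.6. It was the only gene of this list called higher in epiblast than in mesoderm. *Fgf8* had 1.77, 10.3 and 13.5. The median log2 ratio of the list was -2.53 for endoderm minus mesoderm, -2.54 for endoderm minus epiblast and -0.12 for mesoderm minus epiblast.

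**Figure D4:**
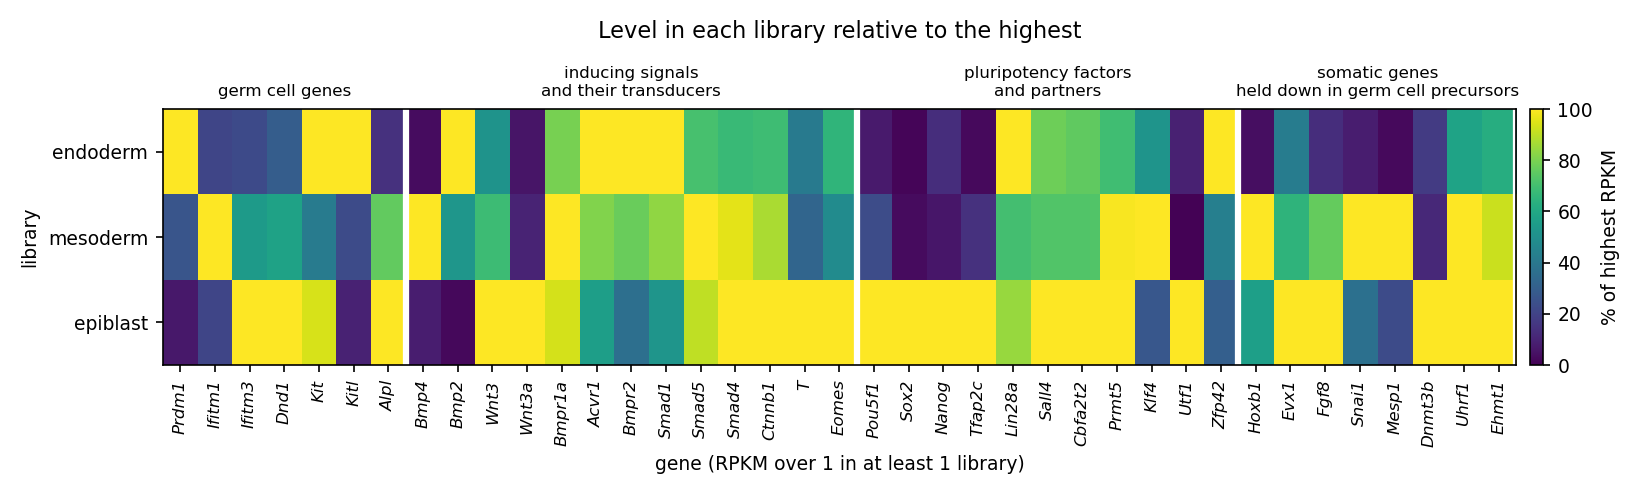
RPKM of each gene (horizontal axis) in the endoderm, mesoderm and epiblast libraries (vertical axis) as a percent of its highest value among them (colour), for germ cell genes and genes of 3 lists with RPKM above 1 in at least 1 library. *Prdm1* and *Kitl* are at 100% in endoderm and at 6.46% and 9.38% in epiblast, where *Pou5f1*, *Sox2*, *Nanog* and *Tfap2c* are at 100%.

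Genes that germ cells switch on later, after they reach the gonad or in meiosis, were low. All 12 on the list had reads in at least 1 library, 2 exceeded an RPKM of 1 and none reached 5, so that none could be called. *Ddx4*, the Vasa homologue, had 407 endoderm, 130 mesoderm and 65 epiblast reads, or RPKM of 3.43, 1.12 and 0.534. *Sycp3*, a component of the meiotic chromosome axis, had RPKM of 2.10, 3.16 and 4.36. The genes of this list did not share a layer: 4 were highest in endoderm, 3 in mesoderm and 5 in epiblast.

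Markers of other tissues that could have come with the layers were counted as well, and their part in the levels above was not tested. The 6 markers of extra-embryonic mesoderm and allantois summed to RPKM of 4.29 (endoderm), 268.3 (mesoderm) and 37.2 (epiblast), most of it in mesoderm and epiblast from *Hand1*, which embryonic mesoderm also expresses. *Tbx4*, the allantois regulator on this list, had 127 reads in mesoderm, 13 in epiblast and 1 in endoderm. Of 6 trophoblast markers 4 had reads, with sums of 25.9, 22.3 and 39.2, mostly from *Cdx2*, a gene of the posterior streak as well, while *Tpbpa* and *Prl3d1* had none. *Esx1*, the one marker of this list called in 2 pairs, was higher in endoderm, the layer in which *Prdm1* and *Kitl* were highest, with 478 endoderm, 4 mesoderm and 9 epiblast reads, or RPKM of 7.11, 0.0606 and 0.130. Endoderm was 117.2-fold above mesoderm and 54.5-fold above epiblast for *Esx1*. The other trophoblast markers with reads went the other way, lowest in endoderm and highest in epiblast. In endoderm, mesoderm and epiblast, *Cdx2* had RPKM of 18.4, 20.9 and 37.1, *Ascl2* 0.268, 1.12 and 1.63, and *Elf5* 0.108, 0.133 and 0.328. Whether the *Esx1* reads came from trophoblast was not tested. Of 7 primitive erythroid markers 5 had reads, with sums of 3.75, 6.65 and 4.29, and *Hba-x* and *Hbb-y* had none. Of 5 decidua markers 4 had reads, with sums of 1.2, 32.1 and 4.8, of which *Hand2*, a mesoderm regulator as well, gave 0.215, 26.2 and 0.367, and *Prl8a2* had none.

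For each of the 7 genes with RPKM above 5, the nearest of 9134 other such genes were found by the distance between centred log2(RPKM+0.1) values, which rest on 3 libraries that every gene shares. *Emp2* (9.16, 2.64 and 0.599 in endoderm, mesoderm and epiblast) was nearest to *Prdm1*, at 0.109, and *Dkk1* (36.1, 8.43 and 3.79) to *Kitl*, at 0.113. *Klf5* (5.82, 2.27 and 5.18) was nearest to *Kit*, at 0.068. *Tagln* (2.12, 11.1 and 2.17) was nearest to *Ifitm1*, at 0.056, with *Gchfr* at 0.151 and *Hmga2* at 0.190 after it. *Rangrf* (19.9, 47.7 and 84.4) was nearest to *Ifitm3*, at 0.045, and *Trerf1* (2.30, 4.46 and 8.08) to *Dnd1*, at 0.050. *Ankrd6* (0.903, 5.25 and 7.18) was nearest to *Alpl*, at 0.058, with *Fgf8* second at 0.069. After these came *Gas6* (0.157) and *Chst15* (0.166) for *Prdm1*, *Arid5b* (0.136) and *Tuft1* (0.160) for *Kitl*, and *Kdm4c* (0.108) and *Bphl* (0.125) for *Kit*. For *Ifitm3* they were *Lrp11* (0.048) and *Rgs10* (0.082), for *Dnd1* *Pmm1* (0.056) and *Cdca7l* (0.066), and for *Alpl*, behind *Fgf8*, *Timp1* (0.093). Genes within a distance of 0.25 numbered 9 for *Prdm1* and 7 for *Kitl*, against 5 for *Ifitm1*, 10 for *Alpl*, 25 for *Ifitm3*, 30 for *Kit* and 45 for *Dnd1*.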

How the data were processed

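Paired-end reads were made from 1 RNA library for each of the 3 germ layers of E7.5 ICR embryos. After trimming adapters and dropping reads of low quality, the authors deposited the count of uniquely mapped reads per gene, with no normalization. Beside it the authors gave the RPKM, the gene length in bases and the coverage as a percent of that length. Recomputed from counts, lengths and totals, RPKM differed by at most 2.03e-07 in relative terms. The submitters' processing notes list TopHat, mm10 and mm9; the counting program and annotation of the gene tables are not given in the sources used here.

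A gene absent from a table was taken as 0 reads, which allows up to 3. The 10 genes, the other gene lists and the tests were chosen with earlier results of these data known. Genes other than the 10 were named by the number of pairs called and then by RPKM, at most 6 per list; *Ifitm6*, *Tbx4*, *Tpbpa*, *Prl3d1*, *Hba-x*, *Hbb-y* and *Prl8a2* are named besides for what they mark or for having no or few reads. Single values of some listed genes are not reported here. Audic and Claverie's two-sided exact test was adjusted by Benjamini-Hochberg, over the genes that had a read in one library of the pair or both. The single libraries give no dispersion, and neither the quasi-likelihood test of edgeR nor DESeq2 could be fitted; as an alternative, the exact test of edgeR took an assumed coefficient of 0.2 or 0.4 for the variation between replicates. Fold intervals are exact binomial (Clopper-Pearson) and cover counting error only.

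Positions, exon overlaps and shared 50-base words came from GENCODE M21 (GRCm38), and promoters from RefSeq (GRCm38.p6), which had entries for 7 of the 10 genes. Motifs searched on both strands were the TATA box TATAAA, the box CCAAT, the GC box GGGCGG, the T-box motif AGGTGTGA, the octamer ATGCAAAT and the interferon response core GAAANNGAA. The tools were edgeR 4.0.16 in R 4.3.3 and, in Python 3.11.15, SciPy 1.17.1, pandas 2.3.3, matplotlib 3.10.9 and numpy 2.4.6.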

Additional observations from a re-analysis of the deposited data

How the results depend on the processing

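Depth limits *Prdm14*, *Dppa3* and *Nanos3*, whose counts are at most 56 reads. TMM and the median of ratios raised endoderm against both other layers by 0.11 (log2), and every one of the 27 log2 ratios of the 9 genes other than *Nanos3* kept its direction and call under both. With 1 RPKM added, 26 of 27 did, and *Kit* between mesoderm and epiblast did not. In the order endoderm against mesoderm, endoderm against epiblast and mesoderm against epiblast, 2038, 2176 and 861 genes were called over all genes. The numbers were 4702, 4885 and 2805 with no RPKM minimum, 3375, 3564 and 1842 with RPKM above 1, and 936, 898 and 334 with a fold above 4. With edgeR's exact test they were 1199, 1235 and 443 at an assumed coefficient of 0.2 and 387, 331 and 60 at 0.4. Of the 10 genes, 6, 5 and 3 were called. With a fold above 4 the counts were 3, 4 and 1, at a coefficient of 0.2 they were 4, 5 and 1, and at 0.4 they were 0, 1 (*Prdm1*) and 0. With no RPKM minimum 5 were called between mesoderm and epiblast, with *Prdm1* and *Prdm14* added. Both the test and the assumed spread differ in the edgeR counts, and the cause of their difference was not tested. No paired analysis was possible because each layer has 1 library, and no library could be left out.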
